A study of Mus musculus with 22 samples.

Results

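Among 11 macrophage libraries of mouse splenic origin, 4 libraries, I and J given ox-LDL and C and D given vehicle, held higher transcript levels of Mmp12, Cd5l and cell-cycle genes than the other 7. The 4 were picked by those measured levels, so they cross the treatments and no label sets them apart. They are compared here, across all genes and with treatment as a covariate, with G, H, K and L (ox-LDL) and A, B and E (vehicle). Of the 11 libraries, 6 were given ox-LDL at 50 µg/mL for 24 hours and 5 were given vehicle, and the whole series holds 22 libraries with the monocytes. All the cells came from wild-type male C57BL/6 mice. Primary splenic monocytes were turned into macrophages over 5 days with 200 ng/mL PMA, a phorbol ester that activates protein kinase C, and only then received ox-LDL, an oxidised low-density lipoprotein that loads macrophages with cholesterol. RNA was polyadenylated RNA amplified with a low-input kit. The labels name neither separate mice nor separate cultures for the libraries, so spreads and p-values below cover differences between libraries, which may be technical.

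Macrophages are mostly non-dividing cells, but some tissue macrophages and growth-factor-fed cultures re-enter the cell cycle. Growth signals raise the D cyclins, which release the E2F factors that drive genes of DNA synthesis. Genes of G2 phase and mitosis are switched on later by B-MYB and FOXM1 with the MuvB complex, which acts through CHR elements and CCAAT boxes in their promoters. Macrophages can also fuse into multinucleated cells through surface proteins such as DC-STAMP. Monocytes that mature into macrophages in culture lose some transcripts and gain others, and macrophages of the splenic red pulp carry a programme of their own for clearing old red cells.

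Levels are in CPM, the usual depth-scaled read count, with TMM factors, a scaling that corrects for library composition. Summed levels of gene lists are the exception, scaled by total counts alone. The TMM factors ran from 0.937 (H) to 1.05 (C), so a narrow gap between sums may not hold with them. Library totals ran from 37330389 to 50257111 counts, and 20331 to 21525 genes had counts. Neither separated the sets: C, D, I and J held 42513269, 43642109, 49588140 and 43100867 counts. Mitochondrial transcripts took 0.0828% to 0.19% of counts over the 11 libraries, with 0.135%, 0.0828%, 0.105% and 0.143% in C, D, I and J. Macrophage transcripts were abundant in all 11 libraries: Cd68, a lysosomal glycoprotein of macrophages, had 2747 to 3169 CPM in C, D, I and J and 2527 to 3405 CPM in the other 7, and Adgre1, which encodes F4/80, had 809 to 1091 CPM in C, D, I and J and 1048 to 1357 CPM in the other 7. Csf1r, the receptor for macrophage colony-stimulating factor, was abundant in every library but lower in the 4, with 3166, 3652, 2553 and 2338 CPM in C, D, I and J, against 3679 to 5500.5 CPM (median 4359) in the other 7. D and L were close there, and the sets overlapped when total counts or median-ratio factors replaced TMM.

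The 11 libraries fell on 3 levels of the first principal component, not 2. C, D, I and J scored 33.3, 32.2, 35.6 and 36.2, while B, E and L scored 0.7, -1.3 and 1.3, and A, G, H and K scored -32.3, -38.8, -34.3 and -32.6. This component held 27.6% of the variance. Each level held libraries of both treatments. The second component, with 14.2% of the variance, separated the treatments instead: the 6 ox-LDL libraries scored -23.3 to -11.5 and the 5 vehicle libraries 8.0 to 40.9. No 2 libraries were copies of each other, since even the closest pairs, G with H and C with D, differed in their counts by 9.39 and 14.2 times the counting variance.

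**Figure D1:**
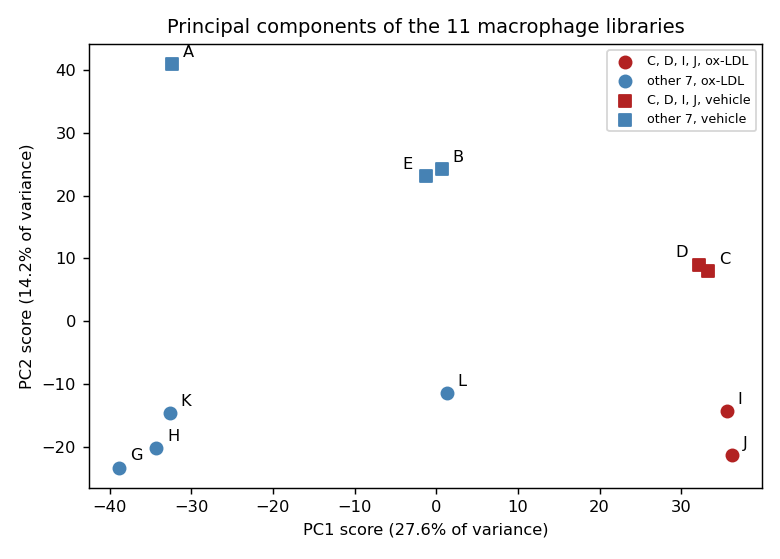
Scores of the 11 macrophage libraries on the first component (horizontal) and the second component (vertical) of log2 CPM, with red for C, D, I and J, blue for the other 7, circles for ox-LDL and squares for vehicle. C, D, I and J lie between 32.2 and 36.2 on the first component, B, E and L between -1.3 and 1.3, and A, G, H and K between -38.8 and -32.3.

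Across all 15753 genes tested, 626 (3.97%) were higher in all 4 of C, D, I and J than in any of the other 7. Another 434 (2.76%) were lower in all 4. When total counts replaced the TMM factors, 733 were higher and 284 lower. With TMM factors and a fitted fold of at least 2 as well, 272 genes (1.73%) were higher and 74 (0.47%) were lower. Because the libraries were chosen by their own levels, these counts and the folds below describe the libraries and carry no test. A gene called higher or lower in the 4 is one whose 2 sets of values did not overlap, and a log2 fold is the edgeR fit with treatment as covariate. Without library C the lower genes numbered 117. Without B, E and L, 625 genes were at least 2-fold higher and 146 lower. Of 21 macrophage identity genes, 0 were higher and 3 were lower (Csf1r, Marco and Aif1, an actin-binding protein of macrophages with a log2 fold of -0.72). With total counts or median-ratio factors only 1 was lower. The list's median log2 fold was -0.15.

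Of the transcripts that chose the libraries, Mmp12, the macrophage elastase, had 2305, 1763, 2379 and 2829.5 CPM in C, D, I and J, against 765 to 1638 CPM (median 1109) in the other 7. The sets did not overlap, but the lowest of the 4, D, stood close to the highest of the others, L. Cd5l, a secreted scavenger protein of tissue macrophages, had 554, 558, 861 and 879 CPM in C, D, I and J, against 227 to 522 CPM (median 427) in the other 7. Here too the nearest values, C inside and L outside, were close. Their log2 folds were 1.00 and 0.87, and neither gene passed the test for ox-LDL with library set as covariate (adjusted p = 0.779 and 0.187, edgeR).

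Cell-cycle genes formed the other part of the rule, and those of G2 phase and mitosis are given first. Of 71 listed genes, all of which passed the filter on low counts, 40 were higher in the 4 libraries, 28 of them at least 2-fold. Only 1 was lower (0 with total counts), beside 3.97% of all genes higher and 2.76% lower. Nothing is read from that excess, since these genes chose the libraries. The median log2 fold of the list was 1.07, beside -0.01 for all genes tested. Without TMM factors, the list's summed level was 816 to 883 CPM in C, D, I and J and 619.9 to 812 CPM in the other 7. That narrow gap was not checked with TMM factors. A few abundant members carry much of the sum, such as Ncapg2, a condensin subunit that was lower in the 4 (log2 fold -0.48). The genes with the largest folds were at low levels. Ube2c, the ubiquitin-conjugating enzyme of the anaphase-promoting complex, had 3.33, 3.05, 4.08 and 3.52 CPM in C, D, I and J, against 0.0260 to 1.37 CPM (median 0.398) in the other 7. Nek2, a kinase that splits centrosomes, had 3.49, 4.63, 3.79 and 2.88 CPM in C, D, I and J, against 0.104 to 1.57 CPM (median 0.553) in the other 7. Both were high in each of the 4, intermediate in B, E and L and low in A, G, H and K, where Ube2c had 0.283, 0.0260, 0.361 and 0.398 CPM. Kif4, a chromosome-bound kinesin, had 1.59, 1.08, 2.03 and 1.22 CPM in C, D, I and J, against 0 to 0.752 CPM (median 0.167) in the other 7, with 0 counts in A and G. Nusap1, a spindle protein, had 2.04, 0.994, 2.15 and 2.61 CPM in C, D, I and J, against 0 to 0.899 CPM (median 0.310) in the other 7. Ccnb2, which encodes cyclin B2, and Kif2c, a kinesin that takes microtubules apart at centromeres, had log2 folds of 2.01 and 2.06. Mki67, named here after its values were seen because its protein is the common stain for cycling cells, did not separate the sets: it had 9.30, 6.44, 9.23 and 4.42 CPM in C, D, I and J, against 4.26 to 10.0 CPM (median 6.49) in the other 7.

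The 250 bases before the annotated starts of the 4 listed genes with the largest folds are shown because this class of promoter is where CHR elements and CCAAT boxes are described. They come from RefSeq on GRCm38.p6 and read 5′ to 3′ on the gene's strand. Capitals mark matches on either strand to the CHR element (TTTGAA), the CCAAT box (CCAAT) and an E2F site (TTCCCGC), and adjoining capitals can be overlapping matches.
Kif4, chrX:100625815-100626064, plus strand: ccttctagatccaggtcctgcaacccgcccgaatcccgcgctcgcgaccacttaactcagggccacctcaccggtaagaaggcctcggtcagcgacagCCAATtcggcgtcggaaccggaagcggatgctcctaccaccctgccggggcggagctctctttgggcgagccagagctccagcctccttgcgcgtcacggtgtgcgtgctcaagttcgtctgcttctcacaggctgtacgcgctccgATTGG
Ube2c, chr2:164769679-164769928, plus strand: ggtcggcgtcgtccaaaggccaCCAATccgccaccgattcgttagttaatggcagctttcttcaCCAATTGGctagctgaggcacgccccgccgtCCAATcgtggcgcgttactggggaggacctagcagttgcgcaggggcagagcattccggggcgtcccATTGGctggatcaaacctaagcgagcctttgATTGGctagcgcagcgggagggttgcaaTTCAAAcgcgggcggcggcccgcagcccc
Nek2, chr1:191821223-191821472, plus strand: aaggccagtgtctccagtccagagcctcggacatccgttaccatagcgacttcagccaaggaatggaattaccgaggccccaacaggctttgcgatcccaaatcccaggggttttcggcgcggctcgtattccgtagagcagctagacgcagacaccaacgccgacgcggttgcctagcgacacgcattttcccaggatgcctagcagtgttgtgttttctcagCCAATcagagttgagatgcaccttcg
Nusap1, chr2:119618048-119618297, plus strand: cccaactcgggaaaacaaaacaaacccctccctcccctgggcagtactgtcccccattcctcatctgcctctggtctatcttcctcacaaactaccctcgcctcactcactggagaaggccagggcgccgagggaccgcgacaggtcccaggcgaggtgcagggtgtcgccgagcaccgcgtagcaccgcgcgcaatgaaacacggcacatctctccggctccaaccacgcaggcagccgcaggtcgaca
In these windows Ube2c held 1 CHR match, whose first base lay at position -29 from the start, and 6 CCAAT matches. Kif4 held 2 CCAAT matches, Nek2 held 1 and Nusap1 held none of the 3 motifs. Of the 71 listed genes, 58 had a promoter in the RefSeq table. Among those 58, 67.2% held a CCAAT match and 34.5% a CHR match, beside 34.5% and 16.3% of all 27025 genes with a promoter there. Both motifs stood together in 31.0% of the 58 and in 5.73% of all genes, while E2F matches were in 1.72% and 3.84%. Within the list, the 32 genes that were higher in the 4 libraries held CHR matches in 34.4% of cases and CCAAT matches in 75%, and the 26 that overlapped or were lower held them in 34.6% and 57.7%. The CHR share was thus alike in listed genes on both sides of the rule.

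Genes of DNA replication and S phase are cell-cycle transcripts too, so their levels also belong to what chose the libraries and nothing is read from their count. Of 50 listed genes, all tested, 17 were higher in the 4 libraries (3.97% of all genes were), 9 of them at least 2-fold, and 0 were lower (2.76%). The median log2 fold was 0.34. Rrm2, the inducible subunit of ribonucleotide reductase, had 11.6, 11.7, 15.0 and 16.1 CPM in C, D, I and J, against 1.74 to 7.46 CPM (median 3.54) in the other 7. Mcm10 and Cdc6, which act in starting replication at origins, had log2 folds of 1.46 and 1.44, at levels of about 1 to 2 CPM in the 4. Among replication-dependent histones, 24 of 50 passed the filter and only Hist1h2bc was higher without overlap (log2 fold 0.67); polyadenylated RNA was sequenced, and most of these histone transcripts have no poly(A) tail. Of 40 promoters found for the S phase list, 62.5% held the CCAAT match, 27.5% the E2F match and 15.0% the CHR match.

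Some G1 cyclins and cell-cycle inhibitors were higher in the same libraries, and others overlapped. Ccnd1, which encodes cyclin D1, had 19.2, 20.5, 32.6 and 27.7 CPM in C, D, I and J, against 5.39 to 14.1 CPM (median 8.63) in the other 7. Every one of the 4 exceeded every other library. Ccnd2 (cyclin D2) and Cdk6, a kinase partner of D cyclins, had log2 folds of 1.41 and 0.64, while Ccnd3 (cyclin D3) overlapped (0.25). Of 23 tested cyclin-dependent kinase inhibitors and p53 targets, 7 were higher in the 4 (3.97% of all genes were), 16 overlapped and 0 were lower, with a median log2 fold of 0.33. Phlda3, a p53 target that restrains AKT, had 87.2, 88.7, 91.3 and 88.8 CPM in C, D, I and J, against 36.6 to 64.1 CPM (median 47.8) in the other 7. Cdkn2b and Cdkn1c, which encode the inhibitors p15 and p57, had log2 folds of 1.13 and 0.92, and Zmat3, another p53 target, 0.79. Cdkn1b, Cdkn2c and Cdkn2d, which encode p27, p18 and p19, overlapped, with log2 folds of -0.33, 0.33 and 0.14.

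Outside the cell cycle, genes of cell fusion were among those far apart. Dcstamp (ENSMUSG00000022303; GRCm38 chromosome 15, 39745930 to 39760938, plus strand), which encodes the fusion protein DC-STAMP, had 63.0, 52.4, 38.5 and 40.8 CPM in C, D, I and J, against 1.13 to 29.4 CPM (median 6.34) in the other 7. The 4 were all above B, E and L (29.4, 19.8 and 16.9 CPM), which were in turn above A, G, H and K (6.34, 3.90, 2.57 and 1.13 CPM). Its partner Ocstamp had 5.05, 4.38, 3.79 and 2.705 CPM in C, D, I and J, against 0.208 to 2.27 CPM (median 0.545) in the other 7, in the same order. Itgb3, the integrin beta 3 chain of osteoclasts and platelets, had 44.7, 36.9, 57.7 and 52.0 CPM in C, D, I and J, against 6.65 to 33.9 CPM (median 15.8) in the other 7. With Car2, 4 of 13 tested osteoclast and multinucleation genes were higher at least 2-fold, beside 1.73% of all genes, but the list's median log2 fold was only 0.05. Its other 9 members overlapped between the sets.

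Other genes with the largest folds among those averaging at least 5 CPM served many roles. Serpinb9b, a serine protease inhibitor of the granzyme-inhibitor family, had 31.3, 28.3, 46.1 and 49.9 CPM in C, D, I and J, against 1.44 to 24.8 CPM (median 2.91) in the other 7. Mgll, the lipase that splits monoacylglycerols, had 68.5, 63.3, 64.8 and 50.1 CPM in C, D, I and J, against 3.25 to 27.7 CPM (median 10.1) in the other 7. Both were graded, with B, E and L at 13.3, 12.4 and 24.8 CPM of Serpinb9b and 27.7, 26.2 and 23.7 CPM of Mgll. Cttn, which encodes the actin-branching protein cortactin, had 23.7, 21.3, 22.3 and 18.6 CPM in C, D, I and J, against 1.62 to 12.6 CPM (median 5.11) in the other 7. Siglecf, a sialic-acid-binding lectin of eosinophils and alveolar macrophages, had 17.98, 17.7, 11.7 and 13.7 CPM in C, D, I and J, against 2.12 to 9.43 CPM (median 2.55) in the other 7. Each of these kept the 4 libraries above all others. Growth-factor genes were in this group: Fgfr1, a fibroblast growth factor receptor, had 21.8 to 26.6 CPM in C, D, I and J and 3.52 to 14.2 CPM in the other 7, and Kitl, which encodes stem cell factor, had 12.9 to 23.5 CPM in C, D, I and J and 1.78 to 11.7 CPM in the other 7. Efr3b, a membrane anchor of a lipid kinase, Cd109, a surface protein that binds transforming growth factor beta, and Gbp8, a guanylate-binding protein, had log2 folds of 1.76, 1.68 and 1.74. Serpinb9b and Gbp8 belong to families of close copies, among which reads cannot be assigned with certainty.

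**Figure D2:**
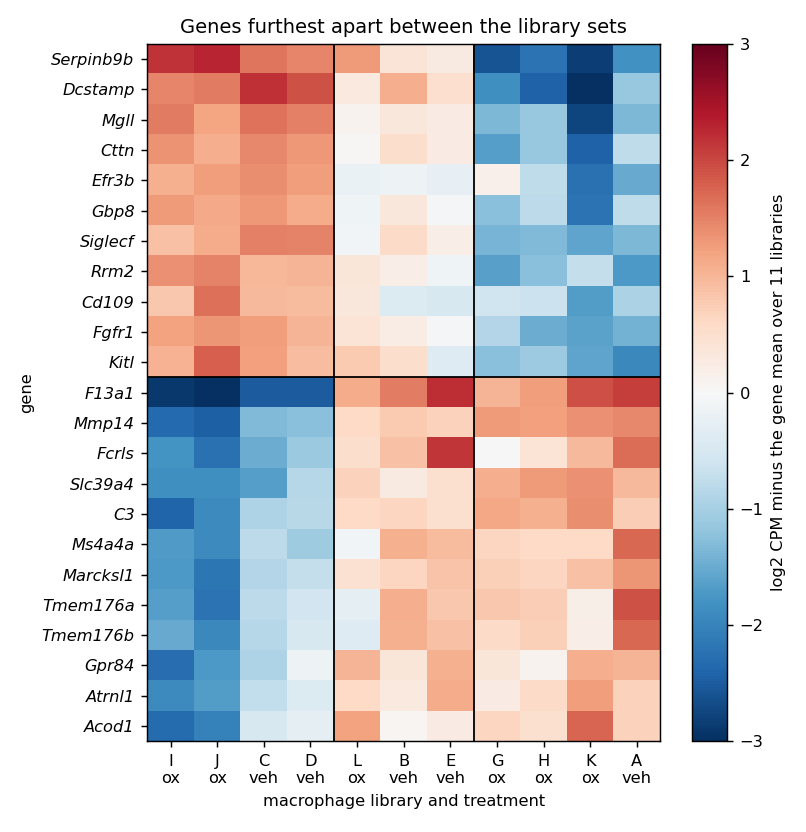
Log2 CPM minus each gene's mean over 11 libraries for 11 of the 12 genes with the highest fold and the 12 with the lowest among non-overlapping genes averaging at least 5 CPM, in columns by library (ox for ox-LDL, veh for vehicle), with vertical lines after C, D, I and J and after B, E and L. Most of the upper genes step down over the 3 groups of columns, while most of the lower genes are low in the left group alone, F13a1 with a log2 fold of -4.46 the furthest.

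Some genes of red pulp and resident macrophages were higher in the 4 libraries. Of 25 listed genes 22 were tested, and 6 were higher (3.97% of all genes were), 3 of them at least 2-fold, while 1 was lower (2.76%) and 15 overlapped. One of the 6 was Cd5l, which chose the libraries. The median log2 fold was 0.43. Vcam1, an adhesion molecule that red pulp macrophages display, had 742, 652, 761 and 798 CPM in C, D, I and J, against 88.4 to 514 CPM (median 274) in the other 7. Fcna, a ficolin of the lectin complement pathway, had 77.6, 64.5, 85.3 and 67.5 CPM in C, D, I and J, against 9.49 to 43.2 CPM (median 29.7) in the other 7. Vsig4, a complement receptor of resident macrophages, had 36.5, 30.9, 36.1 and 39.8 CPM in C, D, I and J, against 6.35 to 25.6 CPM (median 15.4) in the other 7. All 3 kept the 4 libraries apart from the rest. The exception was Stab1, the scavenger receptor stabilin-1, which was lower in the 4, with 639.6, 771, 667 and 544 CPM in C, D, I and J, against 1152 to 1609.6 CPM (median 1397) in the other 7. Among 22 tested genes of apoptotic-cell uptake, 6 were higher and 1, again Stab1, was lower. Axl, a receptor tyrosine kinase for dying cells, had 777, 786, 749 and 704 CPM in C, D, I and J, against 335 to 657 CPM (median 509.9) in the other 7. Anxa1, a phospholipid-binding protein, had a log2 fold of 0.50.

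Of 24 lipid-associated macrophage genes, 4 were higher and 0 lower, one of them Mmp12 itself. Beside this count and those of the next lists, 3.97% of all genes were higher and 2.76% lower. Itgax, which encodes CD11c, had 219, 179, 185 and 179 CPM in C, D, I and J, against 63.6 to 137 CPM (median 108) in the other 7. Lpl, the lipoprotein lipase, had 1008, 819.8, 1225 and 1029 CPM in C, D, I and J, against 553 to 777 CPM (median 697) in the other 7, and Clec7a, the beta-glucan receptor dectin-1, had a log2 fold of 0.66. Pparg, a lipid-sensing nuclear receptor, and Hilpda, an inhibitor of droplet lipolysis, had log2 folds of 0.54 and 0.99; with Lpl and Mgll they made 4 of 27 lipid storage genes higher. Alternative activation genes went both ways, with 2 of 16 tested higher, both at least 2-fold, and 3 lower, 2 of them at least 2-fold. Arg1, the arginase of that state, had 6.73, 5.72, 8.24 and 6.72 CPM in C, D, I and J, against 0.406 to 3.49 CPM (median 0.775) in the other 7. Cd209a, a C-type lectin of dendritic cells and monocyte-derived cells, had 5.59, 6.01, 5.46 and 4.71 CPM in C, D, I and J, against 0.133 to 3.08 CPM (median 0.828) in the other 7. The remaining lower member, Il4ra, the interleukin 4 receptor, was lower by a small amount (log2 fold -0.33). Integrins also went both ways, with 5 of 24 higher and 4 lower (2 with total counts); Itgb7, the integrin beta 7 chain, had a log2 fold of 1.10.

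Among genes averaging at least 5 CPM, the one furthest apart in either direction was F13a1 (ENSMUSG00000039109; GRCm38 chromosome 13, 36867178 to 37050244, minus strand), which encodes the A chain of coagulation factor XIII and marks monocytes and some macrophages. It had 15.0, 15.0, 11.3 and 8.70 CPM in C, D, I and J, against 172 to 389.6 CPM (median 245) in the other 7, and its means were 12.5 ± 3.08 CPM in C, D, I and J (SD, n = 4) and 267 ± 88.7 CPM in the other 7 (n = 7). The 4 values lay far below all the others. It was not graded: B, E and L had 245, 389.6 and 182 CPM and A, G, H and K had 356, 172, 199.7 and 323 CPM, which overlap. Mmp14 (ENSMUSG00000000957; GRCm38 chromosome 14, 54431612 to 54445364, plus strand), the membrane-anchored collagenase that activates other metalloproteinases, had 39.7, 42.0, 19.8 and 18.2 CPM in C, D, I and J, against 152 to 271 CPM (median 234) in the other 7. Its 4 low values stood well below all others, and I and J were below C and D. Fcrls, an Fc receptor-like scavenger, had 18.7, 24.1, 15.1 and 11.1 CPM in C, D, I and J, against 51.7 to 229 CPM (median 95.8) in the other 7. C3, the central complement protein, had 19.1, 20.3, 6.86 and 9.65 CPM in C, D, I and J, against 50.5 to 95.9 CPM (median 60.9) in the other 7. Slc39a4, a zinc importer, had 3.35, 5.74, 2.94 and 2.91 CPM in C, D, I and J, against 12.6 to 27.2 CPM (median 20.5) in the other 7. For each of these genes the 4 values lay below those of all other libraries.

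Metalloproteinases split by member. Of 20 tested members of the protease list, 4 were higher and 3 lower, beside 3.97% and 2.76% of all genes. One of the 4 was Mmp12, which chose the libraries. The 3 lower were all at least 2-fold: Mmp14, Mmp2 (a gelatinase, log2 fold -1.49) and Mmp8 (the neutrophil collagenase, -1.42). Mmp8 had 20.4, 21.0, 24.3 and 21.6 CPM in C, D, I and J, against 40.2 to 85.6 CPM (median 58.5) in the other 7. In the opposite direction, Mmp13, an interstitial collagenase, had 65.2, 46.7, 48.4 and 56.8 CPM in C, D, I and J, against 10.2 to 34.9 CPM (median 14.0) in the other 7. So the collagenase Mmp13 was higher while the collagenases Mmp14 and Mmp8 were lower in the same 4 libraries.

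Further genes with the lowest folds, again among those averaging at least 5 CPM, included membrane proteins of monocytes. Ms4a4a, a tetraspanning protein of macrophages, had 12.6 to 27.9 CPM in C, D, I and J and 44.9 to 156 CPM in the other 7. Tmem176a and Tmem176b, channel-like proteins of myeloid cells, had log2 folds of -2.17 and -1.98; they overlap at one end on opposite strands of chromosome 6, and reads there cannot be split between them without strand. Marcksl1, a regulator of the actin cortex, had 15.5 to 42.7 CPM in C, D, I and J and 95.0 to 174 CPM in the other 7. Gpr84, a receptor for medium-chain fatty acids, Atrnl1, an attractin-like protein, and Acod1, the enzyme that makes itaconate, had log2 folds of -1.96, -1.88 and -1.86. Acod1 had 4.07, 4.74, 1.14 and 1.40 CPM in C, D, I and J, against 5.93 to 19.0 CPM (median 8.88) in the other 7, so the vehicle pair C and D stood just below the others and the ox-LDL pair I and J further below.

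Monocyte markers were lower in the 4 libraries as a list. Of 21 listed genes 18 were tested, of which 5 were lower (3 with total counts), all at least 2-fold, and 0 were higher, beside 2.76% and 3.97% of all genes; the median log2 fold was -0.78. Besides F13a1 these were Thbs1, which encodes the matrix protein thrombospondin 1, Ly6c2, the antigen of classical monocytes, Cd177, a surface protein of neutrophils, and Gpr141, an orphan receptor. Thbs1 had 586, 583, 246 and 188 CPM in C, D, I and J, against 597 to 1605 CPM (median 1159.8) in the other 7, with no overlap but with C and D close to the lowest of the others. Ly6c2 was at 0.284 to 0.693 CPM in C, D, I and J and 0.771 to 2.32 CPM in the other 7. The list's summed level was 486 to 1021 CPM in C, D, I and J and 1286 to 2418 CPM in the other 7, and Thbs1 carried much of it. On a scale over all 22 libraries, the monocyte median of Thbs1 was 174 CPM, below the means of the 4 (419.5) and the other 7 (1197). Monocyte medians were 42.5 CPM for F13a1, between the set means, and 40.9 and 288 CPM for Ly6c2 and Cd177, above both. In bulk RNA, fewer cells of a kind and less RNA of these genes per cell cannot be told apart, and neither was tested.

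Inflammatory mediators and chemokines held more lower than higher members. Of 19 tested inflammatory mediators, 5 were lower and 1, the chemokine gene Ccl4, was higher, beside 2.76% and 3.97% of all genes, with a median log2 fold of -0.60. Saa3, an acute-phase protein, had 1.03, 1.67, 0.243 and 0.744 CPM in C, D, I and J, against 3.08 to 8.92 CPM (median 5.01) in the other 7. Tnf, which encodes tumour necrosis factor, had 5.10, 5.76, 1.89 and 3.29 CPM in C, D, I and J, against 6.92 to 11.0 CPM (median 8.16) in the other 7. Nlrp3, the inflammasome sensor, had 14.1, 15.7, 13.2 and 11.7 CPM in C, D, I and J, against 20.4 to 29.4 CPM (median 22.4) in the other 7. All 3 were lower in each of the 4 than in any other library. Of 16 chemokine ligands 1, again Ccl4, was higher and 3 were lower, among them Pf4 (platelet factor 4, 47.6 to 70.5 CPM in C, D, I and J and 91.6 to 254 CPM in the other 7) and Ccl5 (log2 fold -1.24), and 1 of 17 chemoattractant receptors was lower, Cmklr1, the chemerin receptor (-1.55). Among 28 immediate-early and heat-shock genes 2 were lower and 1 higher, with a median log2 fold of -0.20: Egr1, a growth-response transcription factor, had 24.7, 24.3, 12.2 and 15.2 CPM in C, D, I and J, against 53.3 to 79.8 CPM (median 61.1) in the other 7, and Ier3 had a log2 fold of -1.32, while Atf3 was higher by 0.33.

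Lectins, complement and oxygen-related genes held smaller numbers. For the counts here, 2.76% of all genes were lower and 3.97% higher. Of 23 pattern-recognition genes 5 were lower and 2 higher. Clec4e, which encodes the glycolipid receptor Mincle, had 12.5, 17.0, 8.93 and 8.90 CPM in C, D, I and J, against 21.1 to 53.4 CPM (median 37.7) in the other 7, and Clec4a1 and Tlr1 had log2 folds of -1.40 and -0.94. Marco, a class A scavenger receptor, had 7.18, 8.43, 5.86 and 5.86 CPM in C, D, I and J, against 16.2 to 42.9 CPM (median 19.6) in the other 7. C2, a complement protease, was higher, with 5.94 to 7.74 CPM in C, D, I and J and 0.708 to 3.45 CPM in the other 7. In the glycolysis and hypoxia list 6 of 27 were lower (3 with total counts) and 2 higher: Vegfa, a vessel growth factor, had 46.4, 47.5, 47.2 and 45.1 CPM in C, D, I and J, against 74.1 to 115 CPM (median 90.9) in the other 7, and Hif1a, the oxygen-sensing factor, had a log2 fold of -0.65. P4ha2, a collagen hydroxylase, was higher (0.72). Slc7a11, the cystine importer, and Abcc1, a glutathione-conjugate exporter, were the 2 of 28 NRF2 antioxidant genes that were lower (-0.88 and -0.62). The list's median log2 fold was -0.22, and only 2 of its 28 fitted folds were above 0, beside 47.4% of all genes. With set as covariate, 19 of the 28 rose with ox-LDL. Each set holds both treatments, so overlap between the sets says little for those genes.

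Several groups held no gene whose values were apart between the sets. Each set holds both treatments, so a gene moved strongly by ox-LDL can hardly be apart by this measure. With set as covariate, 20 of the 24 sterol and 27 of the 36 interferon response genes fell with ox-LDL. For them the overlap says little about the sets, while the median folds come from the fit with treatment as covariate. None of the 24 sterol genes, 16 LXR targets, 36 interferon response genes, 47 ribosomal protein genes, 15 mitochondrially encoded genes or 24 ribosome biogenesis genes was apart between C, D, I and J and the other 7, and their median log2 folds ran from -0.15 to 0.04. Insig1, a brake on sterol synthesis, had 25.1 to 61.4 CPM in C, D, I and J and 21.8 to 67.3 CPM in the other 7, ranges that take in both treatments. Rplp0, a ribosomal stalk protein, had 399 to 468 CPM in C, D, I and J and 392 to 509 CPM in the other 7. Among 36 lysosome genes 2 were higher and 1 lower (3.97% and 2.76% of all genes were), with 0 of them apart by 2-fold. Among 34 nuclear genes of oxidative phosphorylation 1 was lower, Sdhb (-0.21). When total counts replaced the TMM factors, the median log2 fold of all genes was 0.03, and list medians moved by 0.04 to 0.06, so that the median of the glycolysis and hypoxia list changed sign.

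Markers of other cell types were given beside these results, and their part in them was not tested. Dendritic cell markers had 3 of 18 tested members higher, all at least 2-fold, and 1 lower, beside 3.97% and 2.76% of all genes. Besides Cd209a, Zbtb46, a transcription factor of classical dendritic cells, had 1.56 to 3.00 CPM in C, D, I and J and 0.703 to 1.44 CPM in the other 7. The summed level of the dendritic cell list, however, was 934 to 992 CPM in C, D, I and J and 877 to 1071 CPM in the other 7, which overlap. T-cell and NK-cell markers summed to 298 to 352 CPM in C, D, I and J and 170.5 to 275 CPM in the other 7. Among them Il7r, the interleukin 7 receptor, had 152 to 221 CPM in C, D, I and J. It had 95.0 to 144 CPM in the other 7, both with TMM factors, unlike the sums. Of the 25 markers 7 were tested, with Trbc2, Nkg7, Gzma, Gzmb and Ncr1 at 0 in all 11 libraries. Lat, a T-cell signalling adaptor, was higher (log2 fold 1.47). Endothelial markers summed to 135 to 139 CPM in C, D, I and J and 73.4 to 130.1 CPM in the other 7, with Cldn5, Emcn and Tek at 0 throughout. That narrow gap was not checked with TMM factors. Kdr and Esam had log2 folds of 1.07 and 1.77. Neutrophil markers summed to 144 to 200.1 CPM in C, D, I and J and 219 to 317 CPM in the other 7, which did not overlap, with Ctsg at 0 and 9 of 21 members tested. Gene by gene, however, 8 of those 9 overlapped and 1 was lower, beside 2.76% of all genes, and the median log2 fold was -0.21. Erythroid markers summed to 127 to 191 CPM in C, D, I and J and 83.7 to 155 CPM in the other 7. B-cell markers summed to 532 to 592 CPM in C, D, I and J and 451 to 562 CPM in the other 7, and platelet markers to 149 to 205 CPM in C, D, I and J and 171 to 288 CPM in the other 7. These last 3 overlapped. Of the erythroid list Epor, the erythropoietin receptor, was higher (18.4 to 24.8 CPM in C, D, I and J and 2.61 to 12.6 CPM in the other 7), while Rhag and Car1 were at 0 in all 11. Stromal markers stayed at 2.43 to 3.15 CPM in C, D, I and J and 3.48 to 5.17 CPM in the other 7, and mast cell markers at 1.35 to 2.48 CPM in C, D, I and J and 0.253 to 1.28 CPM in the other 7.

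The higher and the lower genes differed in how the middle libraries behaved. On the log2 scale, with A, G, H and K set to 0 and C, D, I and J to 1, B, E and L lay at a median of 0.521 over the 272 higher genes (quartiles 0.372 and 0.609), so about midway. Over the 74 lower genes they lay at a median of 0.146 (quartiles -0.0099 and 0.251), close to A, G, H and K. In 159 of the 272 higher genes (58.5%), all of B, E and L exceeded all of A, G, H and K while staying under the 4, and in 9 of the 74 lower genes (12.2%) they were all in between. The G2 and mitosis list showed both steps, with a median log2 ratio of 0.72 for C, D, I and J over B, E and L and 0.57 for B, E and L over A, G, H and K. The monocyte list showed 1 step: -0.93 and 0.01. B, E and L were set apart by their scores on the first component, which these genes help to make, so these places are a description.

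**Figure D3:**
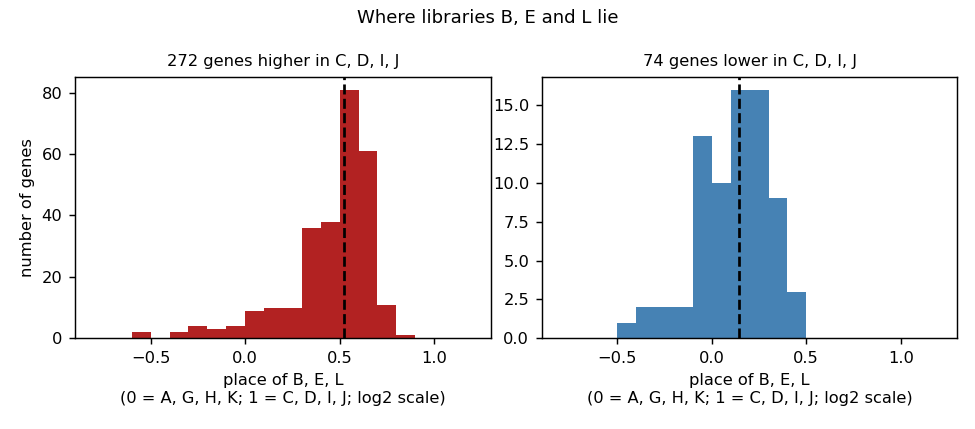
Number of genes (vertical) by the place of B, E and L between A, G, H and K (0) and C, D, I and J (1) on the log2 scale (horizontal), for the 272 genes higher and the 74 genes lower in C, D, I and J, with a dashed line at each median. The higher genes gather near the middle, with a median of 0.521, and the lower genes near 0, with a median of 0.146.

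The set difference was also taken within each treatment, where its direction is fixed by naming genes that do not overlap. With ox-LDL, F13a1 had a log2 ratio of -4.46 for I and J over G, H, K and L, and with vehicle -4.46 for C and D over A, B and E. Dcstamp had 2.69 with ox-LDL and 1.64 with vehicle, and Mgll had 2.33 and 1.66. Acod1 differed most between the treatments among the 24 genes, with -3.27 with ox-LDL and -0.73 with vehicle, but the test of whether its ox-LDL effect differs between sets gave no call (adjusted p = 0.225, edgeR). Across 11658 genes with means of at least 1 CPM, the ox-LDL ratio and the vehicle ratio had a Pearson r of 0.64 and a Spearman rho of 0.386. This correlation is over genes of shared libraries, and both treatments entered the choice of the sets, so it is no independent check.

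The monocytes from which such macrophages are made placed the sets without a simple order. On a scale over all 22 libraries, the monocyte mean of the 272 higher genes was above the mean of C, D, I and J in 88 genes, between the 2 set means in 89 and below the mean of the other 7 in 95. For the 74 lower genes it was above the mean of the other 7 in 41, between in 19 and below the mean of C, D, I and J in 14. Dcstamp had 0.797 to 3.12 CPM (median 1.73) over the 11 monocyte libraries and Mgll 3.28 to 17.0 CPM (median 5.00), with medians below the macrophage means of both sets. Ube2c had 3.73 to 21.6 CPM (median 7.64) in monocytes, with a median above the mean of the 4. F13a1 had 22.7 to 147 CPM (median 42.5), between the sets, and Mmp14 had 54.3 to 175 CPM (median 69.6), also between them.

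Treatment is labelled and was not used to choose the libraries, so ox-LDL effects can be tested within this structure. The library sets were themselves made from these counts, however. The p-values here and in the within-set tests treat that grouping as known beforehand, and they do not cover its choice. With library set as covariate, 298 genes rose (1.89%) and 495 fell (3.14%) with ox-LDL at an adjusted p under 0.05 in edgeR's quasi-likelihood test, and 2690 (17.1%) had an unadjusted p under 0.05. When total counts replaced the TMM factors, 191 rose and 669 fell. Without the set covariate the counts were 132 and 193. Without library E they were 169 and 316. Of the 71 G2 and mitosis genes and the 50 S phase genes, 0 were called in either direction, with median log2 folds of -0.11 and 0.02. Dcstamp, Ocstamp, Itgb3, Ccnd1, Vcam1 and Mmp14 were not called (adjusted p = 0.223, 0.186, 0.199, 0.746, 0.616 and 0.53). F13a1 fell with ox-LDL by a small amount beside its set difference, -0.59 ± 0.16 on the log2 scale (SE; adjusted p = 0.0396), and Fcrls and Thbs1 fell by 0.99 ± 0.20 and 0.85 ± 0.19 (adjusted p = 0.00937 and 0.0149).

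Within the 4 libraries, I and J against C and D, 17 genes rose (0.108%) and 35 fell (0.222%), with 1475 (9.36%) at an unadjusted p under 0.05. With total counts 9 rose and 39 fell. Insig1 had 25.8 and 25.1 CPM in I and J, against 61.4 and 60.5 CPM in C and D, a log2 fold of -1.26 ± 0.10 (SE; adjusted p = 3.9e-05, edgeR). Abcg1, a cholesterol exporter, rose by 0.93 ± 0.11 (adjusted p = 0.00182). Of 24 sterol genes 8 fell and 0 rose, with a median log2 fold of -0.75, and of 28 NRF2 antioxidant genes 7 rose and 0 fell, with a median of 0.43; Gsta3, a glutathione transferase, rose by 1.16 ± 0.21 (adjusted p = 0.0297). Of 36 interferon response genes 1 fell, with a list median of -0.60. Thbs1, one of the markers lower in the 4, had 246 and 188 CPM in I and J, against 586 and 583 CPM in C and D (adjusted p = 0.0245). The count of 52 rests on 2 libraries a side and fell to 2 without D, 5 without J, 11 without C and 11 without I, where the lone library of a side is assumed to vary like the other groups.

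Among the other 7 libraries, G, H, K and L against A, B and E, 255 genes rose (1.62%) and 350 fell (2.22%), with 2663 (16.9%) at an unadjusted p under 0.05. The balance of directions moved with the method, to 147 rising and 485 falling with total counts and to 530 and 531 with DESeq2. Insig1 had 24.4, 23.2, 21.8 and 25.8 CPM in G, H, K and L, against 64.4, 66.8 and 67.3 CPM in A, B and E, a log2 fold of -1.47 ± 0.08 (SE; adjusted p = 9.48e-08, edgeR). Here 17 of 24 sterol genes fell (median -0.81), 25 of 36 interferon response genes fell (median -0.91) and 14 of 28 NRF2 genes rose (median 0.42). Ifit2, an interferon-induced protein, had 1.69, 1.87, 2.39 and 2.55 CPM in G, H, K and L, against 8.97, 7.34 and 10.5 CPM in A, B and E (adjusted p = 6.78e-05). In the 4 libraries it had 4.40 and 3.52 CPM in I and J, against 4.72 and 8.00 CPM in C and D, and was not called (adjusted p = 0.442). Its effect was not called as different between sets either, at 1.39 ± 0.34 on the log2 scale (SE; adjusted p = 0.713). The ox-LDL side of the 7 holds 1 library of the middle level (L) of 4 and the vehicle side 2 (B and E) of 3, so level and treatment are partly mixed there. The total of 605 calls was 339 without H, 346 without G and 392 without A.

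Calls were shared between the sets. Of the 52 genes called within C, D, I and J, 34 were also called among the other 7, 65.4% of the first list and 5.62% of the 605 in the second, and all 34 had the same direction. The numbers of libraries differ, so the counts of calls do not compare the sizes of the effects.

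**Figure D4:**
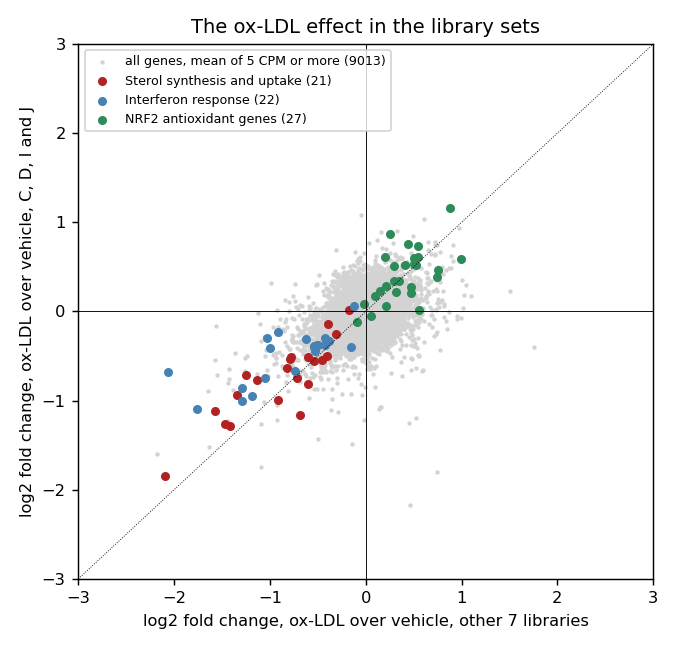
Log2 fold of ox-LDL over vehicle among the other 7 libraries (horizontal) and within C, D, I and J (vertical) for 9013 genes with means of at least 5 CPM in grey, and for sterol (red), interferon response (blue) and NRF2 (green) genes among them; the dotted line marks equal folds. Of the lists, 17 sterol genes fell among the other 7 and 8 within C, D, I and J, and 14 and 7 NRF2 genes rose.

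Only 1 gene of 15753 (0.00635%) was called as differing between the sets in its ox-LDL effect, and 1077 (6.84%) had an unadjusted p under 0.05. That gene was Hp, which encodes haptoglobin, a haemoglobin-binding protein of monocytes and neutrophils. It had 1.26 and 1.08 CPM in I and J, against 3.47 and 7.12 CPM in C and D, and fell within the 4 by 2.17 ± 0.30 on the log2 scale (SE; adjusted p = 0.00806, edgeR). Among the other 7 it had 11.8, 10.9, 13.1 and 10.0 CPM in G, H, K and L, against 8.95, 9.09 and 6.98 CPM in A, B and E, and was not called (adjusted p = 0.238). The difference was -2.63 ± 0.35 (SE; adjusted p = 0.0408). It kept its call in 7 of 17 alternatives, with an adjusted p from 9.16e-17 to 0.559, and 0 genes were called with limma voom and 10 with DESeq2.

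**Figure D5:**
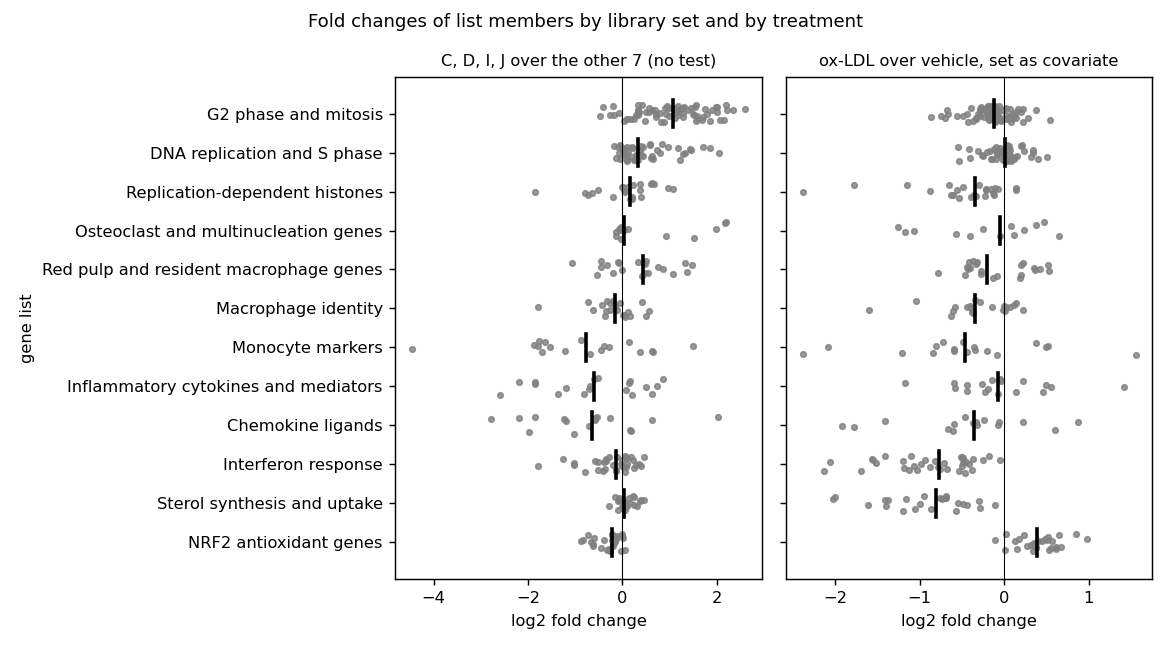
Log2 folds of the members of 12 gene lists, a point per gene and a black bar at each median, for C, D, I and J over the other 7 (left, chosen by these values and not tested) and for ox-LDL over vehicle with set as covariate (right). The G2 and mitosis list has a median of 1.07 on the left and -0.11 on the right, while the sterol list has 0.04 on the left and -0.81 on the right.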

How the data were processed

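RNA of 11 macrophage libraries (6 with ox-LDL, 5 with vehicle) was analysed, and 11 monocyte libraries entered only as levels. The authors deposited raw counts, whole numbers of reads for each gene; per the submitters' processing notes reads were aligned with STAR 2.7.9a and counted with Subread featureCounts 2.0.3 on GRCm38. Strand setting: not given in the sources used here, nor is the annotation release. Of 55487 Ensembl genes, 55141 took a symbol from GENCODE M21.

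Counts were fitted in edgeR 4.0.16 (R 4.3.3, limma 3.58.1) using TMM factors and filterByExpr, which kept 15753 genes. Tests were 2-sided quasi-likelihood F tests, adjusted by Benjamini-Hochberg over all genes. A call is an adjusted p under 0.05, and errors of folds are standard errors. The fit for library sets had treatment as covariate and gives no test; ox-LDL was tested with set as covariate, within each set, and as a difference of effects in a fit of 4 cells (treatment by set). Principal components used log2 CPM with a prior count of 2. Places of B, E and L used an offset of 0.1 CPM. Correlations and list medians are descriptions.

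Named genes were the 12 highest and 12 lowest set folds among non-overlapping, named genes averaging at least 5 CPM, up to 4 non-overlapping members of each list by fold with a mean of at least 1 CPM (or the 2 most abundant members), the 4 G2 and mitosis members of largest fold whose promoters are printed (no minimum level), 8 ox-LDL genes in each direction, and genes called for the difference. A few genes the rule picks were left unreported. Other genes are named where a count is small or where a list's total turns on them, after their values were seen. The library sets, members and gene lists were chosen with earlier results of these data known. Alternatives were other scalings, no filter, DESeq2 1.42.0, limma voom, no covariate, separate fits and each library left out; those on B, E and L were chosen after seeing the data. Scripts were tested on simulated counts. Totals of 37330389 to 50257111 counts per library set the precision of levels, and counts are of amplified reads without molecular identifiers. Monocyte levels were scaled over all 22 libraries, which shifts CPM slightly.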

Additional observations from a re-analysis of the deposited data

Results flagged for a closer look

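In 280 sets of values, each a gene or a library measure within a treatment, 8 had a library standing apart from the rest of its treatment group by Dixon's criterion, which chance meets in about 1 set in 20. With ox-LDL, J had 536.5 CPM of mt-Rnr2, the mitochondrial large ribosomal RNA, against 284 to 345 in the other 5. G had 281.2 CPM of mt-Co1, the lowest of its group (321 to 335), and the highest levels of Srebf2, the sterol-sensing factor (90.6 CPM, against 77.8 to 82.2), and of Il4 (0.703 CPM, against 0.18 to 0.355). I had the highest level of Zbtb46, at 3.00 CPM against 0.703 to 1.56. With vehicle, E had 438.4 CPM of Cx3cr1, the fractalkine receptor, against 172 to 248 in the other 4. C had counts for 21525 genes, against 20808 to 20864, and A had 0.665% of counts in ribosomal protein genes, against 0.534% to 0.555%. The parts that these libraries play in the comparisons were not tested beyond leaving out each one.

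The ox-LDL effect on Hp differed between the sets by -2.63 on the log2 scale in the test of the difference itself, with lower levels in I and J than in C and D and no call among the other 7.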

How the results depend on the processing

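Of 2142 fitted set folds of 119 named genes under other settings, 2112 stayed within the spread, 30 moved and 0 changed sign, all 30 without B, E and L or without A, G, H and K. Genes at least 2-fold apart numbered 346 (600 at 1.5-fold; 771 without B, E and L, chosen after seeing the data) and 340 to 468 leaving out each library in turn. For ox-LDL with set as covariate, 793 calls became 1336 without the filter, 325 without the covariate and 485 to 734 with a library left out; total counts gave 191 higher and 669 lower. The difference of effects had 1 call, 162 without the filter, 10 with DESeq2, 0 with limma voom, 222 without B, E and L (A then alone with vehicle) and 0 to 2 with a library left out. Within C, D, I and J, 52 calls became 285 without the filter, 206 with DESeq2, 265 fitted alone and 2 to 72 with a library left out. Among the other 7, 605 calls became 1248 without the filter, 1061 with DESeq2 (530 higher, 531 lower) and 339 to 642 with a library left out; total counts gave 147 higher and 485 lower, and leaving out B, E and L gave 460 and 323. The causes were not tested. Cd38 lost its ox-LDL call in 9 of 18 alternatives. No paired analysis was possible because the letters of the libraries do not repeat between the treatments. Depth limits genes near or under 1 CPM, such as Ube2c and Kif4 in the other 7.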
